A study of Mus musculus with 288 samples.

Results

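The genes described here are 10 markers of 2 kinds of myeloid cell, 10 of the 35904 genes in the deposited tables. S100a8, S100a9, Csf3r, Cxcr2 and Retnlg mark neutrophils, and Cd68, Csf1r, Adgre1, Marco and Mrc1 mark macrophages. They were chosen by name, and all 10 were found in each of the 12 tables, which hold normalised transcript abundance (TPM) for 6 tissues under 2 treatments. The animals were male wild-type C57BL/6J mice 8 weeks old, kept for 7 days in normoxia (21% O2) or in intermittent hypoxia (IH), in which O2 cycled between 21% and 8% during the light phase. Both groups then spent 2 days in constant darkness in normoxia, so every sample was collected after the exposure had ended. Lung, liver, kidney, muscle, heart and cerebellum were sampled at 8 time points 3 h apart, labelled 1:30 to 22:30, with 3 replicates, which gives 24 libraries per tissue and treatment and 288 in all. The depth of each library cannot be read from TPM, so no counting error is given. The labels do not say which organs came from the same mouse, nor what a replicate number stands for, and libraries were treated as independent.

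Neutrophils are made in bone marrow and circulate in blood, and the lung holds a large pool of them in its capillaries. S100a8 and S100a9 encode the subunits of calprotectin, the most abundant cytosolic protein of the neutrophil, Csf3r is the receptor for the growth factor G-CSF, Cxcr2 is the chemokine receptor that draws neutrophils out of marrow, and Retnlg encodes a secreted protein of the resistin family. Macrophages differ by organ: alveolar macrophages in the lung, Kupffer cells in the liver and microglia in the brain. Csf1r is the receptor on which most of them depend for survival, Cd68 is a lysosomal membrane protein, Adgre1 encodes the F4/80 antigen, Marco is a scavenger receptor of alveolar macrophages and Kupffer cells, and Mrc1 is the mannose receptor CD206.

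The tissue labels were checked against 5 marker genes per tissue. The summed TPM of a tissue's own markers was above the highest sum in any other tissue in every library except 1, a cerebellum library from IH at 1:30, replicate 3, with 368 TPM against 369.9 TPM in a kidney library. Lung markers summed to 34378 to 264040 TPM in lung and to at most 2007 TPM elsewhere. Some libraries stood apart, by rules set after the values were seen. In 17 of 288 libraries (2 in lung, 1 in liver, 0 in kidney, 4 in muscle, 8 in heart and 2 in cerebellum) a marker list of another tissue or of lymphocytes reached at least 20 times its median in the tissue and at least 100 TPM. The liver library from IH at 13:30, replicate 2, held 5493 TPM of heart markers and 1147 TPM of liver markers, where the median liver library held 54663 TPM of its own. Among muscle libraries, 13 of 48 (6 from normoxia and 7 from IH) held at least 10 TPM of 3 bone genes, Bglap, Bglap2 and Ibsp, chosen after the values were seen. So did 9 of 48 cerebellum libraries (6 from normoxia and 3 from IH), with 13.9 to 64.3 TPM. Results that rest on these libraries are given with and without them.

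In normoxia, the mean of each of the 10 genes was highest in lung. S100a8 in lung ran from 37.5 to 232 TPM with a median of 160 TPM, and its mean was 153.8 TPM (SD 61.1, n = 24). In cerebellum S100a8 ran from 6.55 to 108 TPM (median 24.0), in heart from 1.30 to 80.5 TPM (median 5.24), in liver from 0.485 to 3.61 TPM (median 1.21) and in kidney from 0.246 to 2.16 TPM (median 0.949). The cerebellum therefore had higher S100a8 TPM than the liver, and the ranges of these 2 tissues did not overlap. The 6 normoxic cerebellum libraries with bone transcripts held 23.8 to 108 TPM of S100a8 (median 49.8) and the other 18 held 6.55 to 54.5 TPM (median 18.4). S100a9 followed the same order, with a mean of 192.5 TPM (SD 77.9, n = 24) in lung and 1.41 TPM (SD 0.65, n = 24) in kidney. The ratio of the lung mean to the kidney mean was 160 for S100a8 and 136.5 for S100a9.

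The remaining neutrophil markers had lower medians outside the lung in normoxia, with some high libraries in cerebellum and muscle. Csf3r had a median of 9.94 TPM in normoxic lung, and its means in the 5 other tissues lay between 0.177 and 0.756 TPM. Cxcr2 had a median of 3.30 TPM in lung and 1.02 TPM in cerebellum. The cerebellum mean of Cxcr2, 2.65 TPM (SD 4.58, n = 24), was carried by few libraries: its highest value was 19.6 TPM, at 7:30, above the highest lung value of 5.77 TPM. That library, of replicate 1, held 59.8 TPM of S100a8. The normoxic cerebellum library with the highest S100a8 (107.6 TPM, at 4:30, replicate 3) held 3.255 TPM of Cxcr2. Retnlg had a median of 21.6 TPM in lung, 3.38 TPM in cerebellum, 0.919 TPM in heart and 0.394 TPM in muscle, where its mean was 6.69 TPM (SD 12.8, n = 24) and its highest value 37.1 TPM, and was under 1 TPM in 23 of 24 normoxic liver libraries and in all 24 of kidney.

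Among the macrophage markers, Csf1r had its highest mean in lung, 44.9 TPM (SD 9.6, n = 24), and its lowest in cerebellum, 9.25 TPM (SD 1.39, n = 24), a ratio of 4.86. Adgre1 had a mean of 9.14 TPM (SD 5.34, n = 24) in lung and 7.25 TPM (SD 2.46, n = 24) in muscle, and these neighbours did not differ (adjusted permutation p = 0.138). Cd68 means fell in the order lung (27.8 TPM), muscle (14.3), heart (8.82), liver (6.92), cerebellum (2.45) and kidney (2.22). Mrc1 went from 15.1 TPM in lung to 1.04 TPM in kidney. Marco was confined to 2 organs at 1 TPM or more on average: its mean was 6.28 TPM in lung and 3.02 TPM in liver, against 0.260 TPM or less elsewhere, and it was listed at 0 in 4 normoxic kidney and 6 normoxic cerebellum libraries.

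When the tissues were ordered by the mean TPM of each gene, 36 of 50 neighbouring pairs differed in mean log2(TPM + 0.5) by a 2-sided permutation test (24 libraries each, adjusted over the 50 comparisons). All 5 neighbours differed for S100a8, 4 for S100a9, Cxcr2, Cd68, Adgre1 and Mrc1, 3 for Retnlg, Csf1r and Marco, and 2 for Csf3r. Muscle is the exception to reading this order directly. Its S100a8 mean of 91.9 TPM stood above that of cerebellum, while its mean on the log2 scale stood 2.22 units below it (difference muscle minus cerebellum -2.22, adjusted permutation p = 0.00584), because 6 normoxic libraries with bone transcripts held most of the S100a8. Without them the muscle mean of S100a8 was 1.09 TPM, and S100a9, Csf3r, Cxcr2 and Retnlg likewise had lower muscle means, of 1.03, 0.457, 0.208 and 0.343 TPM. Whether a tissue held fewer cells of a type or less RNA per cell cannot be told apart in bulk tissue.

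**Figure D1:**
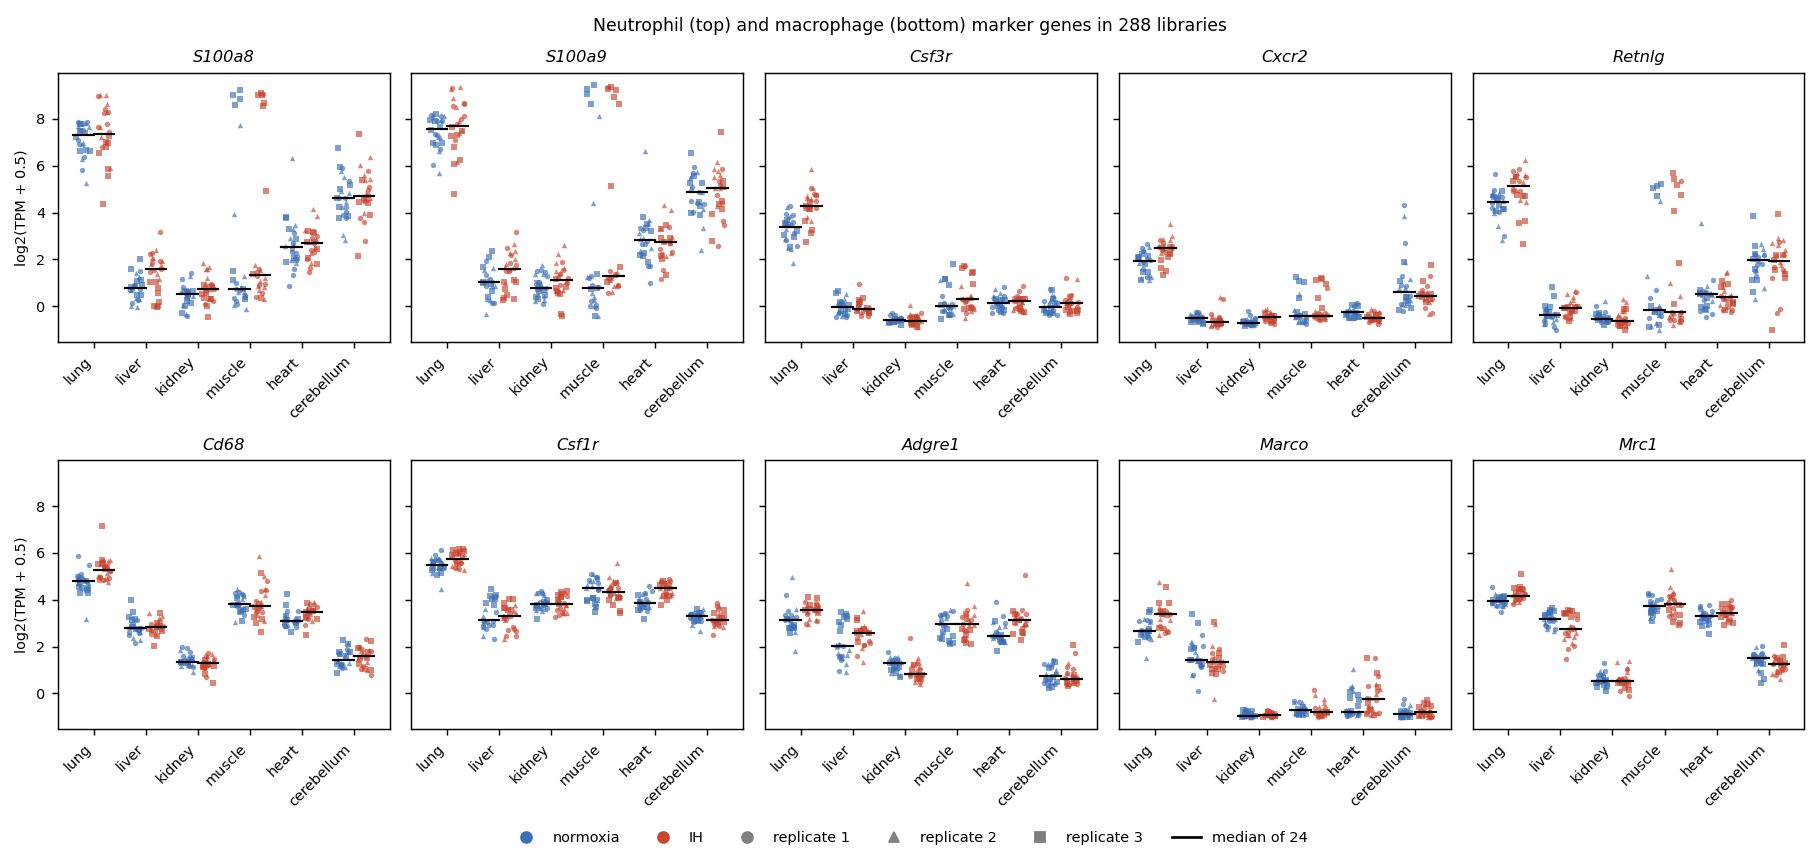
Each point is a library: log2(TPM + 0.5) of the 5 neutrophil genes (top) and the 5 macrophage genes (bottom) in 6 tissues, with normoxia in blue, IH in red, the replicate number as the symbol and a black line at the median of 24 libraries. The muscle libraries split into a low and a high group for S100a8, S100a9 and Retnlg.

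S100a8 and S100a9 lie on mouse chromosome 3, 22596 bases apart and on opposite strands (their correlation is given below). RefSeq (GRCm38.p6) gives windows of 300 bases, 250 of them before the start of the gene, for S100a8 at chr3:90668821-90669120 on the plus strand and for S100a9 at chr3:90695672-90695971 on the minus strand, each written in the direction of the gene. Capitals mark matches on either strand to GAGGAA (the core of a PU.1 site), TTGCNNAA (a C/EBP site), CACGTG (an E-box) or ACGTG (the core of a HIF site), the last of which can overlap CACGTG.
S100a8: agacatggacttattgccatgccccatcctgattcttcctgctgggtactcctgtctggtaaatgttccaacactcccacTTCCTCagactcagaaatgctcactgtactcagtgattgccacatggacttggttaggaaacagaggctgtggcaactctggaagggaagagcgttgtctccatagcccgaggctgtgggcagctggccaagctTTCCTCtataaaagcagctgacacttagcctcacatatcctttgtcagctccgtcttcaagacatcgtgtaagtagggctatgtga
S100a9: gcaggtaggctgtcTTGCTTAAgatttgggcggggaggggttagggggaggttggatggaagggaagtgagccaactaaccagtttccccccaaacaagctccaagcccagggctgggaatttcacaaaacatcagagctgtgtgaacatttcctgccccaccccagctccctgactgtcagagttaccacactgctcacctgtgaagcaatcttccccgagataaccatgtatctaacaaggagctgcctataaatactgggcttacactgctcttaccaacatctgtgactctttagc
S100a8 held 2 matches to GAGGAA and none to TTGCNNAA, and S100a9 held 1 match to TTGCNNAA and none to GAGGAA. Of the 8 members whose windows were searched, GAGGAA was found in Cxcr2, Marco, Mrc1, S100a8, Csf3r and Cd68, and TTGCNNAA in S100a9, Cd68 and Retnlg. The Csf3r window lies inside the RefSeq gene and not before its start. No searched window held CACGTG or ACGTG. Over 32851 windows of the same length, 28.3% held GAGGAA, 10.8% held TTGCNNAA, 7.15% held CACGTG and 19.6% held ACGTG. A match is a description of letters and not of binding. Adgre1 and Csf1r were not searched.

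The next comparison asks whether mean 24-hour expression differed after IH in each tissue. Library scale was set within a tissue by the median of ratios, limma was fitted to log2(scaled TPM + 0.5) for genes whose TPM averaged 1 or more over the 48 libraries, and a gene was called at a Benjamini-Hochberg adjusted p of at most 0.05 and at least 1.5-fold. Of the 60 combinations of member and tissue, 45 passed the filter: 10 in lung, 7 in liver, 6 in kidney, 7 in muscle, 7 in heart and 8 in cerebellum.

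In the lung, Csf3r rose after IH and the other 9 members did not pass both thresholds. Csf3r ran from 3.11 to 19.0 TPM with a median of 9.94 TPM in normoxia and from 6.16 to 57.3 TPM with a median of 18.8 TPM after IH. The ranges overlapped, with 11 of 24 IH libraries above the highest normoxic library and 21 of 24 above the normoxic median. Such ranges, medians and counts, here and in the other tissues, are of TPM as deposited, without scaling. The count above the normoxic median ran from 12 (S100a8) to 23 (Cd68) over the members in lung. It was also 21 for Mrc1, whose log2 fold change after scaling was -0.01, so it does not set Csf3r apart. The log2 fold change was 0.72 (SE 0.17, adjusted p = 0.00021), or 1.65-fold. Thus 1 of 10 members was called higher, where 9.09% of the 15426 lung genes were, and 0 were called lower, where 4.39% of lung genes were. The unadjusted limma p was under 0.05 for 4 members. With each library left out in turn, Csf3r was called in 48 of 48 fits, with log2 fold changes from 0.665 to 0.786.

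The 2 calprotectin genes in lung were not called, and their ranges after IH took in libraries that differed by replicate number (below). S100a8 ran from 37.5 to 232 TPM (median 160) in normoxia and from 20.1 to 521 TPM (median 165) after IH, and S100a9 from 51.6 to 297 TPM (median 190) and from 27.6 to 658 TPM (median 210). The IH group held libraries on both sides of the normoxic range: 8 above its highest and 1 below its lowest S100a8 value. The log2 fold changes were -0.07 (SE 0.26, adjusted p = 0.833) for S100a8 and -0.05 (SE 0.26, adjusted p = 0.87) for S100a9, and with TPM as deposited they were 0.24 and 0.25. Cxcr2 and Marco passed the adjusted p but not 1.5-fold, with log2 fold changes of 0.30 (adjusted p = 0.035) and 0.34 (adjusted p = 0.031). Retnlg (0.35), Cd68 (0.28), Adgre1 (0.13), Csf1r (-0.01) and Mrc1 (-0.01) did not pass.

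Library scale bears on every lung value. The median log2 change over all lung genes was 0.21 with TPM as deposited and -0.08 after scaling, and the share of called genes that were higher after IH was 98.0% before and 67.4% after it. With TPM as deposited, Csf3r (log2 fold change 1.01), Retnlg (0.65) and Marco (0.63) were called, so 3 members instead of 1. Of 15426 lung genes, 2908 were then called higher and 58 lower, against 1402 and 677 after scaling. The number of genes above 0 TPM also differed, with a median of 22690 in normoxia and 24788 after IH. With the log2 of this number as a covariate, 5 members were called: S100a8 (-1.17) and S100a9 (-1.12) lower, and Cd68 (1.08), Adgre1 (0.69) and Marco (1.04) higher, while Csf3r (0.13) was not. The share of all lung genes called with this covariate is not given.

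**Figure D2:**
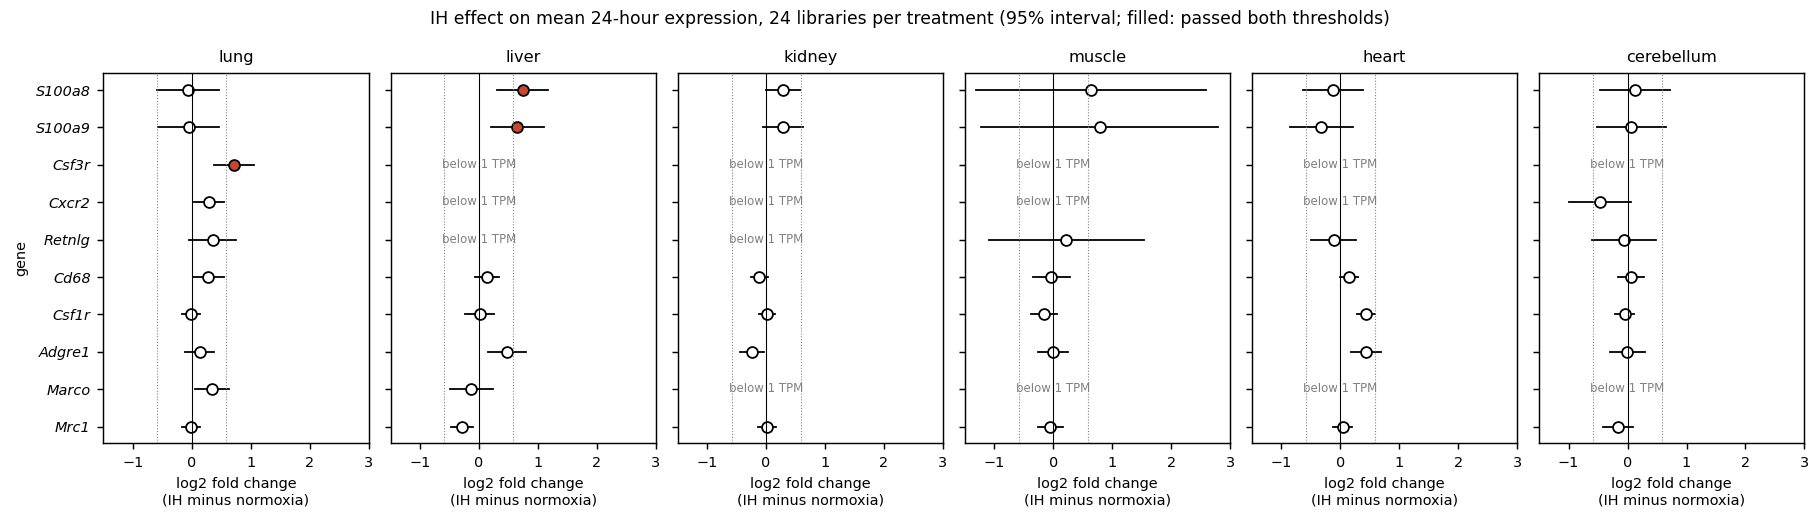
Log2 fold change of IH against normoxia (x axis) for each gene in 6 tissues, 24 libraries per treatment, with 95% intervals from limma; dotted lines mark 1.5-fold and filled points passed both thresholds. The filled points are Csf3r in lung (0.72) and S100a8 (0.75) and S100a9 (0.65) in liver.

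The lung effect was not the same at each replicate number, and this was not particular to the members (shares below). S100a8 had means of 153, 153 and 155 TPM in normoxia for replicates 1, 2 and 3, and of 272, 285 and 92.0 TPM after IH. Its log2 fold changes at the 3 replicate numbers were 0.62, 0.41 and -1.23, of which the last was called. Csf3r showed 0.90, 1.09 and 0.17, and Retnlg 0.69, 0.76 and -0.39. Of the macrophage markers, Cd68 showed -0.26, 0.22 and 0.87, Csf1r -0.38, -0.07 and 0.41, Adgre1 -0.10, -0.10 and 0.60, Marco 0.02, 0.49 and 0.51, and Mrc1 -0.02, -0.13 and 0.12. In the IH libraries of replicates 1, 2 and 3 the 5 neutrophil members summed to 681, 708 and 254 TPM on average and the 5 macrophage members to 116, 127 and 171 TPM. The sum of 16 further neutrophil genes, of which Lcn2 was the most abundant, did not follow the summed members: it averaged 214, 231 and 315 TPM (medians 212, 237 and 267). Such a sum rests on its most abundant genes, so it cannot show whether the others followed the members. A test of whether the IH effect differed between replicate numbers, added after the data were seen, called 6 of 10 members in lung (S100a8, S100a9, Cxcr2, Retnlg, Cd68 and Csf1r), where 50.2% of all lung genes were called; Csf3r, Adgre1, Marco and Mrc1 had adjusted p values of 0.0608 to 0.353. Csf3r fell under 1.5-fold without replicate 2 (log2 fold change 0.54).

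Other marker lists moved with these groups in the lung, and their part in the members' values was not tested. Of 5 lung epithelial markers, led by Scgb1a1, 4 fell after IH (1 with TPM as deposited). Their sum averaged 98048 and 107162 TPM in IH replicates 1 and 2, against 173452 TPM in IH replicate 3. It averaged 166763 to 177399 TPM in the normoxic replicates. The 8 IH libraries with S100a8 above its highest normoxic value, all of replicates 1 and 2, held 34378 to 93529 TPM of these markers. They held 23.6 to 57.3 TPM of Csf3r. The other IH libraries held at least 101788 TPM of the markers and 6.16 to 25.6 TPM of Csf3r, and normoxic libraries at least 135051 TPM of the markers. This split was seen after the values. Of 7 genes of alveolar macrophages, Chil3, Siglecf and Atp6v0d2 rose (4 of 7 with TPM as deposited). The most abundant, Chil3, had means of 241 TPM in normoxia and 597 TPM after IH. The list summed to 1293 TPM on average in IH replicate 3 and to 745 and 720 TPM in IH replicates 1 and 2. The medians were 941, 626 and 821 TPM in the same order, since 1 library of replicate 3 held 3603 TPM. Of 14 further neutrophil genes tested, out of 16, Fpr1, a formyl peptide receptor, rose (log2 fold change 0.60) and Ltf, lactoferrin, fell (-0.80; with TPM as deposited 3 rose and 0 fell). The most abundant gene of that list in lung was Lcn2, which epithelial cells also make, and Ly6g, a defining neutrophil gene, was under 1 TPM on average. Of 16 further macrophage genes, led by Lyz2, C1qa fell and 15 were not called. With TPM as deposited 0 of these fell, and 2 fell without the 2 libraries that held transcripts of another organ. Of 5 heart markers 1 rose, and of 4 muscle markers tested 1 rose (2 and 3 with TPM as deposited, 0 and 1 without the 2 libraries). The heart markers had median sums of 364 TPM in normoxia and 642 TPM after IH. Of 7 microglial genes tested 2 fell, and of 4 genes of sinusoidal endothelium 1 fell (0 and 0 with TPM as deposited).

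In lung, some genes of other blood cells fell after IH. Platelet genes fell in 4 of 4 (most abundant Pf4, 82.4 TPM in normoxia and 68.6 TPM after IH), erythroid genes in 4 of 6 (most abundant Hbb-bs), lymphocyte genes in 4 of 10 (most abundant Cd79b) and monocyte genes in 1 of 4 (Plac8). With TPM as deposited the counts were 0, 0, 2 and 0, and without the 2 libraries that held transcripts of another organ they were 4, 4, 4 and 0. Of 6 tested ligands and receptors, Ager, a receptor for calprotectin that alveolar epithelium expresses, fell (-0.88; not called with TPM as deposited), and Csf1, Csf2, Il34, Cxcl5 and Tlr4 were not called. The ligand genes Csf3, Cxcl1, Cxcl2 and Cxcl3 were under 1 TPM on average. Of 4 tested myeloid transcription factors, led by Cebpb, 0 were called by limma; Spi1, which encodes PU.1, had a log2 fold change of -0.14.

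In the liver, S100a8 and S100a9 rose after IH. S100a8 ran from 0.485 to 3.61 TPM with a median of 1.21 TPM in normoxia and from 0.483 to 8.45 TPM with a median of 2.48 TPM after IH. S100a9 ran from 0.307 to 4.65 TPM (median 1.53) and from 0.703 to 8.48 TPM (median 2.50). The groups overlapped, with 6 of 24 IH libraries above the highest normoxic value of S100a8 and 19 of 24 above its normoxic median. The log2 fold changes were 0.75 (SE 0.22, adjusted p = 0.0093), or 1.68-fold, and 0.65 (SE 0.22, adjusted p = 0.028), or 1.57-fold. Of 7 members tested, 2 were called higher, where 1.10% of the 11334 liver genes were, and 0 lower, where 2.55% were. The unadjusted p was under 0.05 for 4 members.

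The macrophage members of the liver did not reach 1.5-fold. Adgre1 had medians of 3.53 TPM in normoxia and 5.45 TPM after IH (log2 fold change 0.48, adjusted p = 0.025), and Mrc1 of 8.64 and 6.29 TPM (-0.29, adjusted p = 0.017). Cd68 (0.14), Csf1r (0.01) and Marco (-0.13) had adjusted p values of 0.338 to 0.963. The 4 Kupffer cell genes, led by Clec4f, had 0 called, as had the 6 genes of sinusoidal endothelium, which also expresses Mrc1 (1 of these 6 fell with TPM as deposited, and 1 without the library with heart transcripts); their sums had medians of 107 and 114 TPM and of 87.0 and 103 TPM in normoxia and IH.

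The liver values, too, differed by replicate number. S100a8 had means of 1.22, 1.13 and 1.73 TPM in normoxia at replicates 1, 2 and 3, and of 3.84, 3.15 and 0.930 TPM after IH. Its log2 fold changes were 1.41, 1.34 and -0.52, of which the last was not called (adjusted p = 0.469), and those of Adgre1 were 0.70, 1.08 and -0.35. Of 11334 genes, replicate 3 alone gave 1 call, against 13.1% and 9.12% of genes at replicates 1 and 2. The test between replicate numbers called S100a8, S100a9, Cd68, Adgre1 and Mrc1, 5 of 7 members, where 17.0% of liver genes were called. Neither calprotectin gene was called without replicate 1 (S100a8 0.41, S100a9 0.39) or without replicate 2 (0.45 and 0.33). S100a9 also fell under 1.5-fold when 1 of 2 libraries was left out, IH 1:30 replicate 1 (0.583) or IH 13:30 replicate 1 (0.578), and it was not called with TPM as deposited (log2 fold change 0.53). Without the library that held heart transcripts the 2 genes remained called (0.69 and 0.60).

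**Figure D3:**
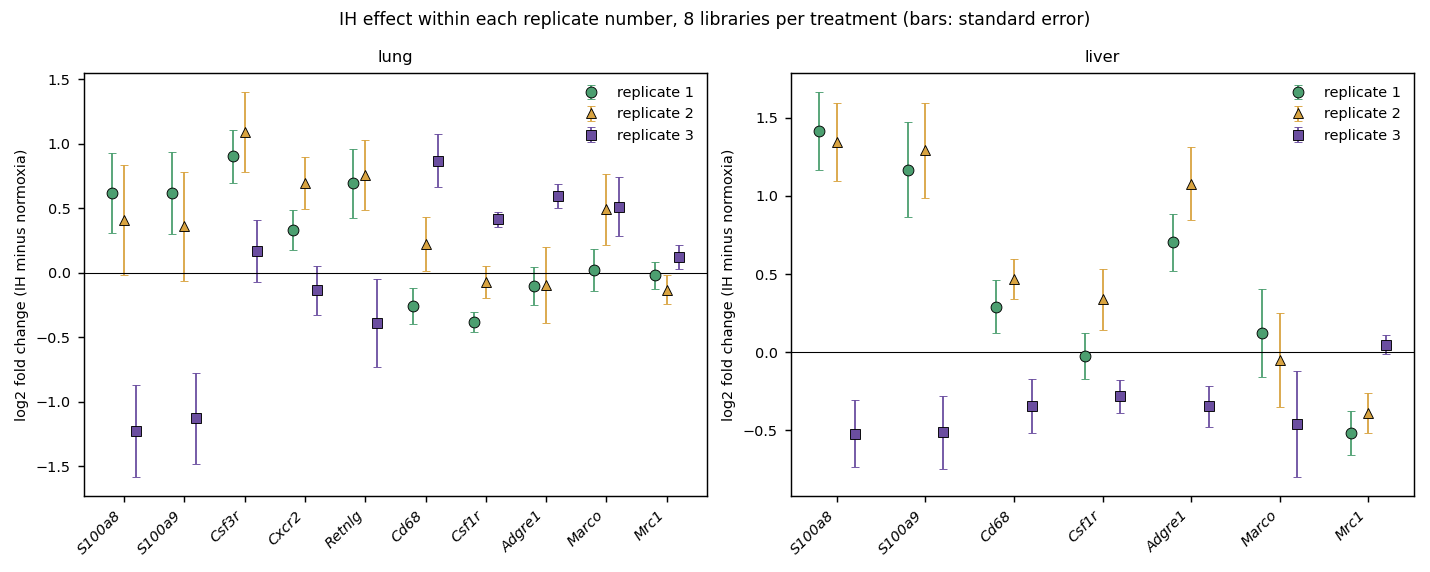
Log2 fold change of IH against normoxia within each replicate number, 8 libraries per treatment, for the genes tested in lung (left) and liver (right), with bars of 1 standard error. At replicate 3, S100a8 lay at -1.23 in lung (called) and -0.52 in liver (not called), below the other replicate numbers.

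Transcripts of other organs also rose in the liver: the 5 heart markers tested, led by Tnnt2, were called higher in 5 of 5 (median log2 fold change 1.36) and the kidney markers, led by Kap, in 3 of 3 tested (2.13), with the same counts with TPM as deposited and without the library with heart transcripts. Erythroid transcripts rose as well. Of 5 erythroid genes tested, led by Hbb-bs, 4 rose after IH (log2 fold changes 0.74 to 1.10; 3 without the library with heart transcripts), and the list summed to a median of 2741 TPM in normoxia and 4248 TPM after IH. Of 5 hepatocyte markers, led by Alb, 4 fell (1 of 5 without the library with heart transcripts). The list averaged 34949 and 36370 TPM in IH replicates 1 and 2, and 59383 TPM in IH replicate 3, where the normoxic replicates averaged 56223 to 62820 TPM. The part of any of these lists in the rise of S100a8 and S100a9 was not tested. Scaling moved the median log2 change over all liver genes from -0.12 to -0.01, and the share of called genes that were higher from 11.9% to 30.2%.

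In kidney, 0 of 6 members were called by limma, with 2 at an unadjusted p under 0.05 (S100a8 and Adgre1). S100a8 had medians of 0.949 and 1.16 TPM (log2 fold change 0.29) and Adgre1 of 1.99 and 1.26 TPM (-0.24). Of the 12902 kidney genes, 0.411% were called higher and 0.372% lower. Erythroid genes rose in 5 of 6, with a median sum of 4190 TPM in normoxia and 6568 TPM after IH. The test between replicate numbers called S100a9, Cd68 and Csf1r, 3 of 6 members, where 26.4% of kidney genes were called.

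In muscle, the neutrophil genes differed between libraries with and without bone transcripts. S100a8 ran from 15.0 to 604 TPM with a median of 456 TPM in the 13 libraries with bone transcripts, and from 0.427 to 2.86 TPM with a median of 1.17 TPM in the other 35, so the 2 sets did not overlap. The sum of the 3 bone genes was 29.9 to 214 TPM in the former and at most 0.326 TPM in the latter. Retnlg ran from 1.95 to 51.6 TPM and from 0 to 1.49 TPM, and the sum of 16 further neutrophil genes from 28.2 to 463 TPM and from 6.56 to 31.35 TPM. The haemoglobin chains summed to medians of 9866 and 4370 TPM. The macrophage members showed no such excess: Csf1r had medians of 15.4 TPM with and 23.0 TPM without bone transcripts, Adgre1 of 4.999 and 8.26 TPM, and Cd68 of 11.8 and 14.1 TPM. The list of alveolar macrophage genes did have a higher median sum in the 13 libraries (given under the other observations). Of the 13 libraries, 10 carried replicate number 3. The part of bone or marrow tissue in these values was not tested.

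**Figure D4:**
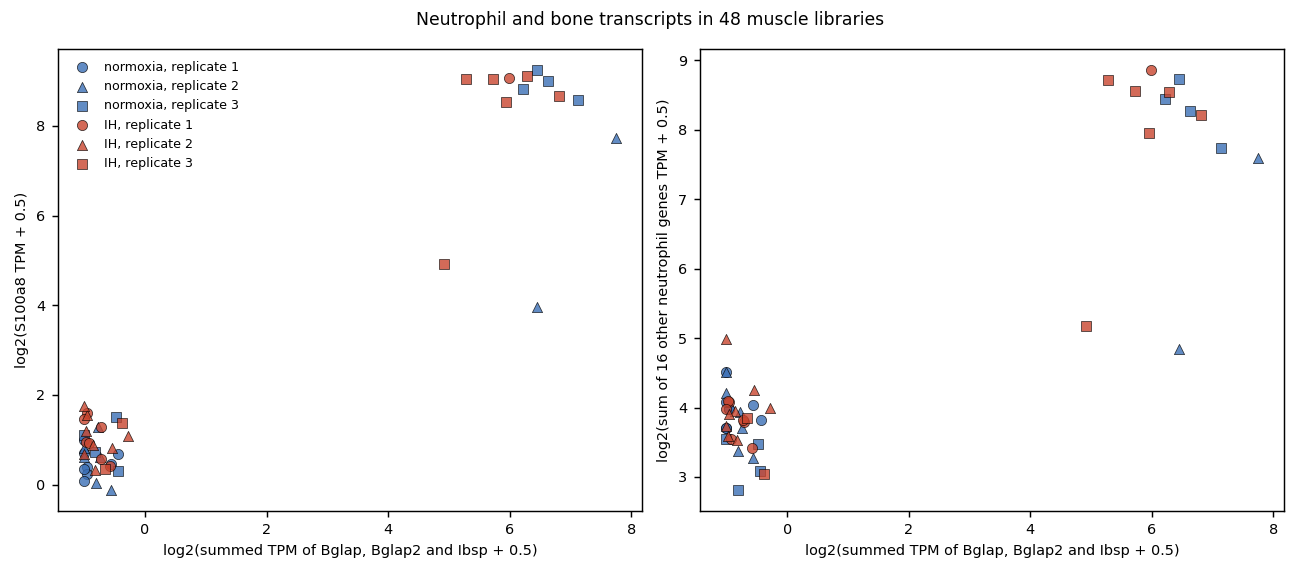
Log2 TPM of S100a8 (left) and of 16 other neutrophil genes summed (right) against the log2 summed TPM of 3 bone genes in 48 muscle libraries, coloured by treatment with the replicate number as the symbol. The 13 libraries to the right hold 29.9 to 214 TPM of bone transcripts and at least 15.0 TPM of S100a8.

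After IH, 0 of 7 members were called in muscle, with 0 at an unadjusted p under 0.05, where 0.250% of the 12824 muscle genes were called higher and 0.125% lower. The log2 fold change of S100a8 was 0.64 (SE 0.97), so the interval ran from -1.31 to 2.59. Without the 13 libraries 0 members were called as well, but S100a9 passed the adjusted p under 1.5-fold (log2 fold change 0.57, adjusted p = 0.0196). Its medians were 0.887 TPM in 18 normoxic and 1.71 TPM in 17 IH libraries, and those of S100a8 were 1.04 and 1.42 TPM (log2 fold change 0.36). The test between replicate numbers called 0 of 7, where 9.14% of muscle genes were called.

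In heart, Csf1r and Adgre1 passed the adjusted p but not 1.5-fold, and the other 5 tested members passed neither. Csf1r ran from 8.64 to 23.3 TPM (median 14.1) in normoxia and from 13.2 to 29.1 TPM (median 22.0) after IH, with 23 of 24 IH libraries above the normoxic median. Its log2 fold change was 0.44 (SE 0.07, adjusted p = 6.8e-06), and that of Adgre1 was 0.44 (SE 0.13, adjusted p = 0.0045). At the 3 replicate numbers Csf1r showed 0.47, 0.39 and 0.46. Of 7 members 0 were called by limma, with 2 at an unadjusted p under 0.05; 1.10% of the 12779 heart genes were called higher and 1.85% lower. The 16 further macrophage genes had 0 called (1 higher with TPM as deposited), with the highest log2 fold change at Cd163 (0.49). S100a8 ran from 1.30 to 80.5 TPM in normoxia and from 2.24 to 17.4 TPM after IH, the highest value being the normoxic library at 10:30, replicate 2. The test between replicate numbers called 0 of 7, where 0% of heart genes were called. Scaling moved the median log2 change over all heart genes from 0.15 to 0.04 and the share of higher calls from 66.8% to 37.4%.

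In cerebellum, 0 of 8 members were called by limma and 0 had an unadjusted p under 0.05, where 1.48% of the 14892 cerebellum genes were called higher and 1.16% lower. S100a8 had medians of 24.0 and 25.5 TPM, and its highest value, 161 TPM, came from IH at 13:30, replicate 3, which held 45.1 TPM of bone transcripts. S100a8 had a median of 54.3 TPM in the 9 libraries with bone transcripts and 21.8 TPM in the other 39, and the ranges overlapped. Without the 9 libraries 0 members were called, and the part of bone or marrow tissue was not tested. Cxcr2 ran from 0.374 to 19.6 TPM (median 1.02) in normoxia and from 0.296 to 2.87 TPM (median 0.848) after IH. The 8 microglial genes had 0 called and summed to medians of 85.8 and 86.9 TPM. The test between replicate numbers called 0 of 8, where 3.67% of cerebellum genes were called.

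Whether the IH effect in lung differed from that in another tissue was tested as an interaction over the 96 libraries of each pair. Of 35 member comparisons, 2 were called: S100a8 against liver and Cxcr2 against cerebellum. For S100a8 the lung effect minus the liver effect was -0.81 (SE 0.34, adjusted p = 0.041), and for Cxcr2 the lung effect minus the cerebellum effect was 0.76 (SE 0.30, adjusted p = 0.026). These were 1 of 7 members with liver and 1 of 8 with cerebellum, where 16.4% and 18.1% of all genes were called, so neither share was above that of all genes. Against kidney, muscle and heart 0 members were called by limma, where 14.3%, 8.45% and 21.3% of genes were. Over the 35 comparisons 8 had an unadjusted p under 0.05. Csf1r differed between lung and heart by -0.45 (adjusted p = 0.00011), under 1.5-fold. The rise of Csf3r in lung could not be compared, since Csf3r had a mean under 1 TPM in the 5 other tissues. The S100a8 difference was lost when any of 19 libraries was left out (lowest size -0.68, without lung IH 13:30 replicate 3), and without the libraries that held transcripts of another organ (-0.69). It was also not called with TPM as deposited (-0.39), with a pseudocount of 1 (-0.70), without replicate 1 (-0.82) or without replicate 2 (-0.75). The Cxcr2 difference was not called without replicate 1 (0.58), without replicate 2 (0.35) or without the 9 cerebellum libraries with bone transcripts (0.64).

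Neutrophil numbers in blood vary over the day, and the time points allow a test of a 24-hour cosine curve in each tissue and treatment. Of 90 member tests 2 were called, with 7 at an unadjusted p under 0.05. In normoxic lung, Cxcr2 had an amplitude of 0.42 log2 units and an acrophase at 1.19 h (adjusted p = 0.017). After IH its amplitude in lung was 0.13 (adjusted p = 0.87). In normoxic liver, S100a9 had an amplitude of 0.52 and an acrophase at 3.14 h (adjusted p = 0.034). Cxcr2 in lung was called with each of 24 libraries left out, and S100a9 in liver in 15 of 24 fits, with an adjusted p of up to 0.077. With a replicate number left out, Cxcr2 was called without replicate 2 but not without replicate 1 or 3, and S100a9 without replicate 3 but not without replicate 1 or 2. Neither was called with TPM as deposited, with the curve fitted to linear TPM or with time as a factor. The share of all genes called rhythmic in normoxia and after IH was 9.15% and 4.65% in lung, 17.7% and 2.63% in liver, 21.0% and 5.74% in kidney, 6.38% and 8.83% in muscle, 0.626% and 4.17% in heart, and 0% and 0.0134% in cerebellum.

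Of 4 clock genes, Arntl, Dbp, Nr1d1 and Per2, named after their values were seen, all 4 were called rhythmic in both treatments in lung, kidney, muscle and heart and in normoxic liver, and 3 in liver after IH (Per2 had an adjusted p of 0.297). In cerebellum 0 were called by limma in normoxia (adjusted p of 0.106 to 0.339, with 2 at an unadjusted p under 0.05) and 1, Dbp, after IH. Since 0% of the 14892 genes were called in normoxic cerebellum, this check could neither support nor contradict its time labels. The fitted acrophases there were 9.81 h for Dbp, 13.4 h for Per2, 10.8 h for Nr1d1 and 19.7 h for Arntl. In normoxic lung they were 8.09, 12.8, 6.11 and 22.3 h in the same order. In normoxic lung Arntl had an amplitude of 1.44 with an acrophase at 22.3 h and Dbp one of 1.93 at 8.09 h, so both amplitudes exceeded that of any neutrophil or macrophage gene called. A difference in rhythm between treatments was called by limma for 0 of 45 member tests, with 0 at an unadjusted p under 0.05, where 0% of all genes were called in lung, 0% in liver, 0% in kidney, 0% in muscle, 0% in heart and 0% in cerebellum. Of all genes, 0.563% (heart) to 4.59% (cerebellum) had an unadjusted limma p under 0.05. The test called no gene in any tissue, so it does not set the members apart. The loss of the Cxcr2 curve after IH in lung is thus not shown as a difference.

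**Figure D5:**
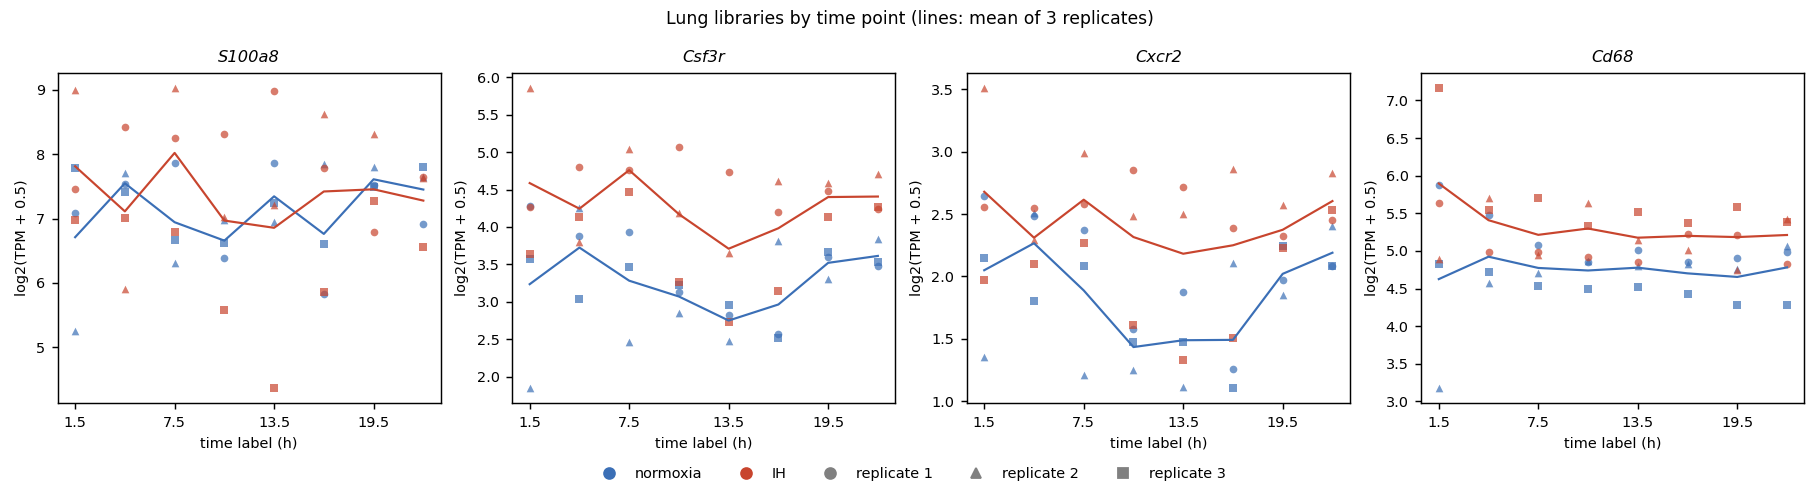
Log2(TPM + 0.5) of 4 genes in lung by time label in hours, with normoxia in blue, IH in red, the replicate number as the symbol and lines through the mean of 3 replicates. The normoxic Cxcr2 line is lowest from 10:30 to 16:30, and the Csf3r line after IH lies above that of normoxia at all 8 time points. The values are TPM as deposited, without scaling within the tissue.

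Across the 48 libraries of a tissue, 3 relations were computed in each of 6 tissues, with p values adjusted over 18. S100a8 and S100a9 went together in lung (r = 0.997, rho = 0.992), liver (r = 0.949, rho = 0.931), kidney (r = 0.807, rho = 0.811), heart (r = 0.964, rho = 0.934) and cerebellum (r = 0.958, rho = 0.957). Each permutation p was 1e-05, the smallest the permutations can give (adjusted 2.57e-05). Without the 2 libraries farthest from the median of S100a8, r was 0.996, 0.936, 0.750, 0.933 and 0.948. Within normoxia r ran from 0.831 to 0.993 and within IH from 0.784 to 0.998 over these tissues. Within a replicate number the lowest r was 0.304, in kidney at replicate 3. Muscle falls into 2 clusters, so no pooled r is given: r was 0.998 (rho = 0.929) in the 13 libraries with bone transcripts and 0.641 (rho = 0.644) in the other 35, with permutation p of 1e-05 for r, and 6e-05 and 5e-05 for rho.

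The summed neutrophil members went with the summed haemoglobin chains in 3 tissues. In liver r was 0.549 (p = 7e-05, adjusted 0.000158; rho = 0.569, p = 5e-05, adjusted 0.0001125), in kidney 0.521 (p = 0.00017, adjusted 0.00034; rho = 0.465, p = 0.00086, adjusted 0.00172) and in heart 0.399 (p = 0.00474, adjusted 0.00776; rho = 0.313, p = 0.03, adjusted 0.049). Without the 2 farthest libraries r was 0.553, 0.406 and 0.309. Within normoxia r was 0.342, 0.587 and 0.508 and within IH 0.506, 0.468 and 0.253. The relation did not hold within replicate 3, where r was -0.07, -0.001 and -0.26, against 0.715, 0.299 and 0.648 in replicate 1 and 0.641, 0.692 and 0.387 in replicate 2. In lung r was 0.227 (p = 0.122, adjusted 0.183; rho = 0.183, p = 0.213, adjusted 0.32) and in cerebellum 0.136 (p = 0.355, adjusted 0.492; rho = 0.113, p = 0.44, adjusted 0.609). In muscle r was 0.694 (p = 0.0138; rho = 0.308, p = 0.307) in the 13 libraries and 0.328 (p = 0.0534; rho = 0.304, p = 0.0748) in the other 35.

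The summed neutrophil and summed macrophage members showed no pooled relation in lung (r = -0.08, p = 0.581, adjusted 0.697, and rho = -0.10, p = 0.514, adjusted 0.617) or liver (r = -0.07, p = 0.657, adjusted 0.74, and rho = -0.10, p = 0.483, adjusted 0.617). Without the 2 farthest libraries r was -0.285 in lung, -0.113 in liver, -0.092 in kidney, -0.077 in heart and 0.168 in cerebellum. Within treatments the sign differed: r was 0.451 in normoxia and -0.61 after IH in lung, and 0.555 and -0.59 in liver. Within replicates 1, 2 and 3, r was -0.06, 0.292 and -0.34 in lung and 0.024, 0.134 and 0.549 in liver. In kidney, heart and cerebellum r lay between -0.09 and -0.01, with p of 0.535 to 0.927, and no permutation p of these 3 tissues was under 0.05. In muscle r was 0.013 (p = 0.967) in the 13 libraries and 0.212 (p = 0.223) in the other 35.

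The genes most like the members were found by Pearson r of log2 values with the mean of the neutrophil or of the macrophage members over 48 libraries of a tissue, with the members tested there: all 5 neutrophil members in lung, 4 in cerebellum (without Csf3r), S100a8, S100a9 and Retnlg in muscle and heart, and S100a8 and S100a9 alone in liver and kidney. Of the macrophage members, 5 were used in lung and liver and 4 (without Marco) elsewhere. In lung the neutrophil mean was followed most closely by Il1b (r = 0.893), which encodes interleukin-1 beta, then Gad1-ps (0.876), Clec4d (0.867), Slfn1 (0.842) and Trim30b (0.826). The macrophage mean in lung was followed by Lipa (0.898), the lysosomal acid lipase, then Mfsd12 (0.886), Abcg1 (0.862), Itgb2 (0.858) and B3gnt7 (0.839). In muscle and cerebellum the neutrophil mean was followed by the same 3 genes for granule proteins of developing neutrophils: Ngp, Camp and Ltf. In muscle, where the pooled r follows the 2 clusters, their r was 0.991, 0.995 and 0.990 in the 13 libraries with bone transcripts and 0.526, 0.281 and 0.567 in the other 35. In cerebellum it was 0.745, 0.888 and 0.766, and 0.685, 0.864 and 0.711 in the 39 libraries without bone transcripts. In the 9 cerebellum libraries with bone transcripts it was 0.731, 0.790 and 0.599. In liver the genes were Med28 (0.875), Clic1 (0.870) and Gngt2 (0.870) for neutrophils and Cybb (0.855), Sdc3 (0.834) and Itgb2 (0.807) for macrophages. In heart they were Ifitm6 (0.635), Clec1b (0.622) and Isg20 (0.596), and Fcrls (0.908), Lyn (0.895) and Tlr2 (0.895). In kidney they were Zfp472 (0.724), Gngt2 (0.719) and 5730409E04Rik (0.713), and Ptprc (0.863), Mpeg1 (0.840) and Pld4 (0.827). The macrophage mean was followed by Cfp, Lgmn and C1qb in muscle (r of 0.953 to 0.956). Their r was 0.939 to 0.949 without bone transcripts and 0.922 to 0.976 with them. In cerebellum the macrophage mean was followed by Acadl, Rnase4 and Rilpl1 (0.906 to 0.912). Their r was 0.914 to 0.931 without bone transcripts and 0.737 to 0.865 with them.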

How the data were processed

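The 288 libraries were poly(A) RNA-seq of mouse tissue. The authors quantified reads with kallisto and deposited gene-level TPM. Each table's tissue and treatment were read from its name, and its columns give time point and replicate. The members and gene lists were chosen with earlier results of these data known. All 10 members are named in every tissue; other named genes come from 20 fixed lists or are the 5 (lung) or 3 (other tissues) genes of highest correlation with the members, except where the text says that a gene was chosen after its values were seen. TPM were scaled by the median of ratios within a tissue, 0.5 was added and log2 taken, and genes that averaged 1 TPM or more over 48 libraries were fitted with limma 3.58.1 in R 4.3.3 (empirical Bayes with a trend). Rhythm was tested with a 24-hour cosine curve. Permutation tests were 2-sided with 100000 resamples (scipy 1.17.1). Alternatives varied scale, pseudocount, filter, covariates, replicates and libraries. The procedures were tested on simulated data.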

Additional observations from a re-analysis of the deposited data

Results flagged for a closer look

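The IH effect on S100a8 in lung differed from that in liver by an interaction test (lung minus liver -0.81 on the log2 scale, from effects of -0.07 and 0.75). This was 1 of 7 members, a share not above the 16.4% of all genes called. By replicate number the lung effect was 0.62, 0.41 and -1.23 and the liver effect 1.41, 1.34 and -0.52, of which the value at replicate 3 was called in lung and not in liver (adjusted p = 0.469). The difference was not called with TPM as deposited (-0.39), with a pseudocount of 1 (-0.70), without replicate 1 (-0.82), without replicate 2 (-0.75) or without the libraries that held transcripts of another organ (-0.69), and it was lost when any of 19 libraries was left out. The cause of this was not tested.

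The IH effect on Cxcr2 in lung differed from that in cerebellum by the same test (lung minus cerebellum 0.76, from effects of 0.30 and -0.47). This was 1 of 8 members, a share not above the 18.1% of all genes called. The highest Cxcr2 values in normoxic cerebellum were 19.6 and 13.8 TPM, both at 7:30, in replicates 1 and 2. Without replicate 1 the difference was 0.58 and without replicate 2 it was 0.35, and neither was called. It was 0.64 and not called without the 9 cerebellum libraries with bone transcripts, among them the library with 19.6 TPM. The source of the high values was not tested.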

How the results depend on the processing

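TPM do not give the depth of each library, so no counting error is given. The fits and the tests between tissues take libraries as independent. The paper reports several organs collected from the mice, so different tissues probably share mice, which those tests ignore. Leaving out each library, and the libraries or genes that stood apart, were alternatives chosen after seeing the data. A block for replicate number changed no count (1 in lung, 2 in liver, 0 in the 4 other tissues, 2 for rhythm, 0 for a difference in rhythm, 2 for lung against other tissues). The pairing of replicate numbers between treatments had median correlations of -0.136 in lung to 0.224 in liver, and 5 to 16 of 24 pairs were above 0.1. Averaged over time points, r at the same number was 0.155, 0.376 and 0.651 in muscle and 0.669, -0.06 and 0.487 in liver, in each of which 2 of 3 normoxic replicates correlated best with their own number, and at most 0.287 in the 4 other tissues, where 0 did. The numbers are thus not shown to pair the libraries, and muscle and liver leave it open.

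Members called after IH in lung, 1 as reported, were 3 with TPM as deposited, 5 with the number of genes above 0 as a covariate, 3 by adjusted p alone, 0 to 2 without 1 replicate, and 2, 3 and 4 with replicate 1, 2 or 3 alone. In liver, 2 as reported, the members called were 1 with TPM as deposited, 1 with a pseudocount of 1, 0 at a mean of at least 5 TPM, which removes both genes from the test, 1 with no filter, 4 by adjusted p alone, 0 to 3 without 1 replicate, 3, 3 and 0 with replicate 1, 2 or 3 alone and 1 to 2 with each library left out. At replicate 1, 2 or 3 alone, 13.1%, 9.12% and 0.00882% of all liver genes were called. With replicate 3 alone, S100a8 and S100a9 in liver lost their call and changed sign (-0.52 and -0.51); the cause was not tested. In kidney 1 member was called with replicate 2 alone (S100a8, where 2.60% of kidney genes were called), in heart 2 by adjusted p alone and in cerebellum 0 to 1 without 1 replicate (Cxcr2, without replicate 3). In muscle the count was 0 in all alternatives.

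Rhythm calls, 2 as reported, were 0 with TPM as deposited, 0 with linear TPM, 0 with time as a factor, 0 to 2 without 1 replicate (Cxcr2 and Csf3r in normoxic lung without replicate 2; S100a9 in normoxic liver and Cd68 in muscle after IH without replicate 3) and 1 to 3 with each library left out. Comparisons called between lung and other tissues, 2 as reported, were 6 with TPM as deposited, 1 with a pseudocount of 1, 6 by adjusted p alone, 0 to 5 without 1 replicate, 1 without the cerebellum libraries with bone transcripts and 1 to 2 with each library left out. The shares of all genes called under these settings, and under those for rhythm, are not given. The cause of these changes was not tested. The neighbouring tissue pairs that differed, 36 as reported, were 28 to 36 without 1 replicate, 34 without libraries that held transcripts of another organ, 38 without the muscle libraries with bone transcripts and 36 without those of cerebellum. Without the muscle libraries the pairs kept the order set with all libraries, so some were no longer neighbours. S100a8 in muscle (1.09 TPM) was still set against cerebellum (30.4 TPM), with a difference of -4.04. Over the single-gene results, 721 of the values for the IH effect neither gained nor lost a call, and in 114 of these, called in neither fit, the sign changed. A further 26 became called, 10 lost their call with the sign kept, and 2, S100a8 and S100a9 in liver at replicate 3, lost it with the sign changed. For lung against another tissue 327 neither gained nor lost a call (39 with a changed sign), 15 became called and 8 lost their call.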

Other observations

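Liver libraries also differed in transcripts of other organs. Kap, an abundant androgen-dependent gene of the kidney tubule, averaged 22.2 TPM in normoxic liver and 87.6 TPM after IH (log2 fold change 3.88, limma adjusted p = 8.5e-08). The 5 kidney markers summed to 37.5 TPM or more in all 24 IH liver libraries. In normoxia they summed to at most 3.68 TPM in replicate 1 and 7.66 TPM in replicate 2, while replicate 3 ran from 0.756 to 112.5 TPM with a median of 100.2 TPM. The heart markers showed the same split, with medians of 9.16, 9.01 and 34.9 TPM in normoxic replicates 1, 2 and 3 and of 29.0, 26.3 and 25.7 TPM after IH. The median of normoxic replicate 3 on these lists was thus closer to the IH medians than to those of normoxic replicates 1 and 2. Replicate 3 alone gave 1 called liver gene after IH. The origin of these transcripts was not tested.

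The macrophage lists fixed for 1 organ were not silent in others. Of 8 microglial genes, 7 had a mean of at least 1 TPM in lung, 6 in muscle, 6 in heart, 5 in kidney and 2 in liver, against 8 in cerebellum. Of 4 Kupffer cell genes, 4 reached 1 TPM in liver, 2 in heart, 1 in lung, 1 in muscle and 0 in kidney and cerebellum. Of 7 alveolar macrophage genes, 7 reached it in lung, 4 in muscle, 2 in liver, 2 in kidney, 2 in heart and 1 in cerebellum. In muscle this list summed to 6.29 to 60.6 TPM (median 25.0) in the 13 libraries with bone transcripts and to 5.24 to 16.1 TPM (median 8.01) in the other 35.

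The ratio of S100a9 to S100a8 was steadiest in lung, where log2(S100a9/S100a8) with 0.5 TPM added to each ran from 0.18 to 0.51 over 48 libraries (median 0.32). In muscle it ran from -0.78 to 0.95 and in kidney from -0.62 to 1.14. The muscle range pools libraries with and without bone transcripts. The 0.5 TPM added weighs more where both genes are low, so the ranges are not strictly comparable between tissues.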
